A study of Homo sapiens with 3 samples.

Results

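Oxidative phosphorylation is the set of protein machines of the inner mitochondrial membrane that pass electrons from NADH and succinate to oxygen and use the resulting proton gradient to make ATP. Complex I (NADH dehydrogenase), complex II (succinate dehydrogenase), complex III (the cytochrome bc1 complex) and complex IV (cytochrome c oxidase) form the respiratory chain, and complex V is the ATP synthase. Most subunits are encoded in the nucleus and a few core subunits of complexes I, III, IV and V in mitochondrial DNA, so that both gene sets are needed to build these 4 complexes. The genes described here are the nuclear-encoded ones, chosen by symbol alone: probe sets annotated to exactly 1 gene whose symbol starts with NDUFA, NDUFB, NDUFC, NDUFS, NDUFV, UQCR, COX4 to COX8, ATP5F1, ATP5M or ATP5P, or is SDHA to SDHD. The rule uses no expression value, although it was written with earlier results of these data known. The rule found 89 genes among the 19775 that a probe set with 1 gene names, and 83 of them were tested among 12321 genes.

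Expression was profiled in HCT-116, an established human line from a colorectal cancer, on the Human Genome U133 Plus 2.0 Array, with 1 array for each of 3 conditions. The conditions were SCD1-WT cells given T-3764518, an inhibitor of stearoyl-CoA desaturase-1 (SCD1) called the inhibitor below, at 100 nM for 24 h, SCD1-KO cells, and SCD1-WT cells given DMSO for 24 h as the control. SCD1-KO cells carried a CRISPR-Cas9 deletion of part of the SCD1 gene and were picked as clones. The number of clones behind the array is not stated in the sources used here, the labels give this array no vehicle or time, and the dose and the DMSO treatment of SCD1-KO cells were taken from the methods. Each condition had 1 array, so differences between conditions could not be set against replicates and carry no p-value. The DMSO array is the denominator of both ratios, and a high or low DMSO signal moves them together.

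A value is a MAS5 signal, the brightness of a probe set on a linear scale. A probe set was kept if its log2 signal, averaged over the arrays, reached the median for the whole array, which corresponds to a signal of 56.6. A gene's ratio is the median over its kept probe sets of the log2 signal minus that of the DMSO array, and a gene was called higher or lower at 2-fold. The only error that could be measured was the SD between probe sets of the same gene, which over 5 bins of signal was 0.58 in the dimmest and 0.26 in the brightest bin for T-3764518 (log2 scale), and 0.60 and 0.25 for SCD1-KO cells. It does not cover differences between cultures. SCD, the edited gene, was above DMSO by 2.81 with the inhibitor and by 1.16 in SCD1-KO cells (log2, 4 probe sets). Whether its probes lie outside the deleted part was not tested, so this does not check the knockout. The epithelial markers EPCAM, KRT8, KRT18, KRT19 and CDH1 all had kept probe sets, and 2 of them, EPCAM (-1.30) and CDH1 (-1.48), were called lower in SCD1-KO cells, where the other 3 lay between 0.26 and 0.36. PTPRC, COL1A2 and ALB, which mark leukocytes, fibroblasts and hepatocytes, had none, while 1 of 5 probe sets of PECAM1 and 2 of 5 of COL1A1 were kept.

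The oxidative phosphorylation genes lay slightly below DMSO on both arrays, except that with T-3764518 their median was above 0 once the arrays were scaled to 1 median. The members' ratios had a median of -0.21 with T-3764518 (log2 scale), beside -0.09 over all genes tested, and -0.20 in SCD1-KO cells, beside -0.01. With T-3764518, 71 of the 83 genes (85.5%) had a ratio under 0, against 59% of all genes, and in SCD1-KO cells 66 (79.5%), against 51.1%. Signals are relative to the whole array, so fewer transcripts per cell and more RNA of other genes cannot be told apart. The sizes were small. With T-3764518, 2 members, NDUFB7 and COX4I2, were called lower, where 3.3% of all genes were, and 0 higher, where 2.18% were. In SCD1-KO cells 0 were called lower and 0 higher, where 3.93% and 3.12% of all genes were. At 1.5-fold, 4 members were lower with the inhibitor and 8 in SCD1-KO cells, beside 12.3% and 11.4% of all genes, and 0 were higher in either, beside 6.62% and 9.95%. A shift of this size depends on the scale of the arrays. When the arrays were scaled to 1 median, the median of the members moved to 0.07 with the inhibitor and -0.06 in SCD1-KO cells. That of all genes moved to 0.19 and 0.13, and the members under 0 to 30 (31% of all genes) and 52 (37.7%). The direction of the T-3764518 ratio thus flipped. This scaling shifts every gene of an array alike, so the members' distance below the median of all genes, 0.12 and 0.19, could not change.

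These genes are bright. Of the 83, 48 were among the 1233 genes with a mean signal of 2980 or more. These 48 had a median of -0.20 with the inhibitor and -0.22 in SCD1-KO cells, against -0.02 and -0.03 over all 1233 bright genes, and 43 and 41 of them were under 0, against 52.9% and 54.0% of the bright genes. SCD1-KO cells were also set against T-3764518 directly, a comparison without the DMSO array. The 71 structural subunits then differed by a median of 0.01 (SCD1-KO minus T-3764518, all genes 0.06). Of these 71, 38 were higher and 33 lower in SCD1-KO cells, beside 6814 higher and 5507 lower of all 12321 genes. On the lower side 1, SDHD, passed 2-fold, as did 3.11% of all genes, while 0 passed it on the higher side, as did 4.58%.

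**Figure D1:**
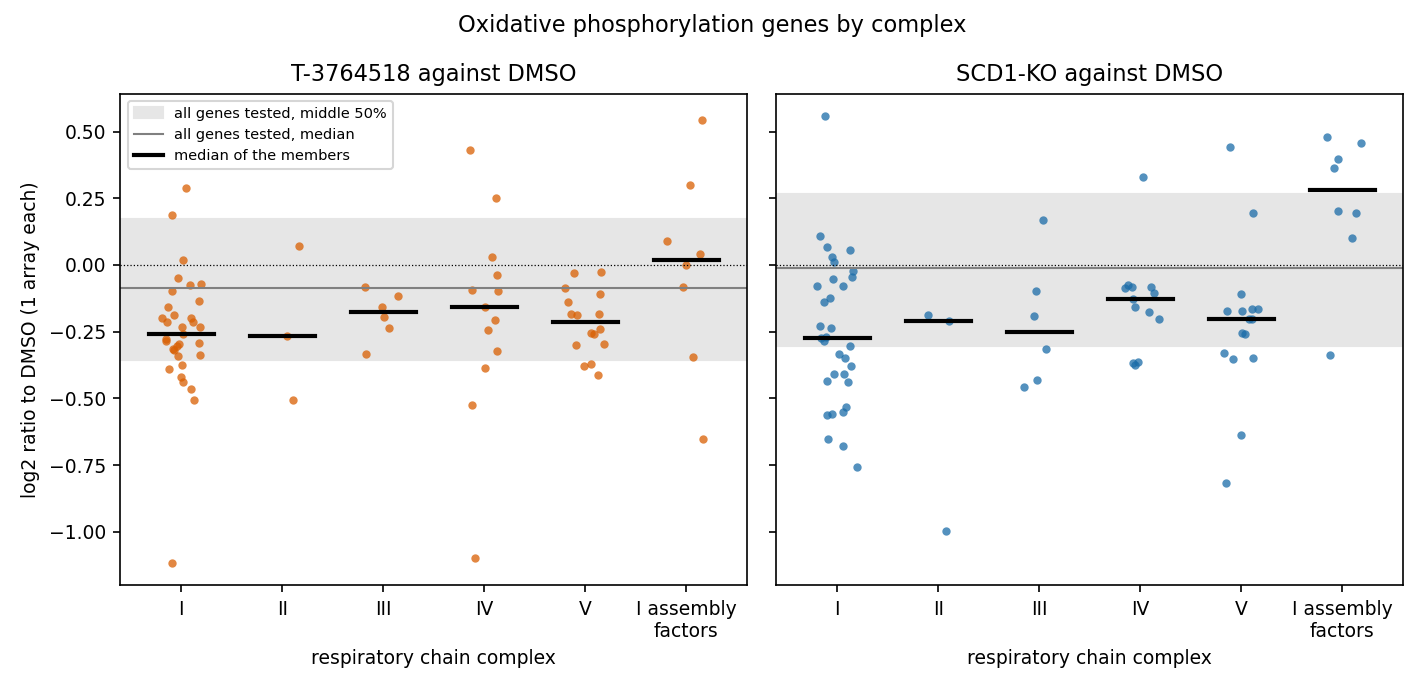
Log2 ratio to DMSO of each of the 79 tested protein-coding members (points) by complex, with T-3764518 on the left and in SCD1-KO cells on the right, 1 array each. Black bars are the medians of the members, the grey line and band the median and the interquartile range of all 12321 genes tested. The bars of complexes I to V lie between -0.27 and -0.13, below the grey line in both panels (above 0 with T-3764518 if the arrays are scaled to 1 median), and that of the NDUFAF assembly factors at 0.02 and 0.28.

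The complexes differed little from one another. The medians with T-3764518 were -0.26 for complex I (33 genes), -0.27 for complex II (3), -0.18 for complex III (6), -0.16 for complex IV (13) and -0.21 for complex V (16). In SCD1-KO cells they were -0.27, -0.21, -0.25, -0.13 and -0.20 in the same order. With the arrays scaled to 1 median all 5 were above 0 with T-3764518, as was complex IV in SCD1-KO cells. Relative to their chromosome neighbours, complexes III and IV were at 0.0033 and 0.019 with T-3764518, on the other side of 0. The range of the 5 medians, 0.11 with the inhibitor and 0.15 in SCD1-KO cells, was smaller than the SD over the members in nearly every complex, which was 0.09 to 0.37 and 0.18 to 0.46, and no order of the complexes can be read from it. The SD was below that range only for complex III with T-3764518, at 0.09, where the members ran from -0.33 to -0.08. The 8 proteins whose symbols start with NDUFAF are matched by the same rule but build complex I without staying in it. They had a median of 0.02 with the inhibitor and 0.28 in SCD1-KO cells, and are kept apart from the subunits below.

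The promoters of 5 members are shown. SDHD, ATP5MG, ATP5ME and NDUFS6 are among the genes with the lowest or highest ratio of their complex in SCD1-KO cells, and NDUFB7 had the largest fall with T-3764518. NDUFS7, SDHA, UQCR10, UQCRQ, COX5A and COX7B were also the lowest or highest of their complexes in SCD1-KO cells but are not shown. Each promoter shown holds 250 bases before the RefSeq start and 50 after it, on GRCh38.p14 and in the direction of transcription. Capitals mark exact matches to 3 motifs searched on both strands: NRF1 (GCGC, any base, then TGCGC), the ETS motif that GABPA binds (CCGGAAG, which reads CTTCCGG on the other strand) and YY1 (AANATGGCG). NRF1, GABPA and YY1 are transcription factors long known for binding promoters of respiratory chain genes. SDHD lies at chr11:112086623-112086922 (plus strand), ATP5MG at chr11:118401356-118401655 (plus), ATP5ME at chr4:674227-674526 (minus), NDUFS6 at chr5:1801157-1801456 (plus) and NDUFB7 at chr19:14572017-14572316 (minus).
SDHD: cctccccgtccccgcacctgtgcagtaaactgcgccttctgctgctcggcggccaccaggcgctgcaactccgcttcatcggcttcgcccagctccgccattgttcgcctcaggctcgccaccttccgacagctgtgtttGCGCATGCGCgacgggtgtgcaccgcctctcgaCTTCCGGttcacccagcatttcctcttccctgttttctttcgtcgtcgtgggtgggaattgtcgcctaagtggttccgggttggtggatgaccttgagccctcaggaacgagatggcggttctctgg
ATP5MG: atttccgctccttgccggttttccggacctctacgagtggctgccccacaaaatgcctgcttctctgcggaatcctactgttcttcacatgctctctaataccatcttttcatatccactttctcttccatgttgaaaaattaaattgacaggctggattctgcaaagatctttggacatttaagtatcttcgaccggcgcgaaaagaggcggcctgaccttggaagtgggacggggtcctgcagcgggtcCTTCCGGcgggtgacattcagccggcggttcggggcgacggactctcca
ATP5ME: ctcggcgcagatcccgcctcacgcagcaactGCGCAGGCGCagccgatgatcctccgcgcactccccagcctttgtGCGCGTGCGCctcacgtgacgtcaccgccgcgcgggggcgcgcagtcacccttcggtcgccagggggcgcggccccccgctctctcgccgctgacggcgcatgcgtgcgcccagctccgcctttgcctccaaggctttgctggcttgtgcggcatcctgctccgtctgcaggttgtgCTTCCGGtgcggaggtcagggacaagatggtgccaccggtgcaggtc
NDUFS6: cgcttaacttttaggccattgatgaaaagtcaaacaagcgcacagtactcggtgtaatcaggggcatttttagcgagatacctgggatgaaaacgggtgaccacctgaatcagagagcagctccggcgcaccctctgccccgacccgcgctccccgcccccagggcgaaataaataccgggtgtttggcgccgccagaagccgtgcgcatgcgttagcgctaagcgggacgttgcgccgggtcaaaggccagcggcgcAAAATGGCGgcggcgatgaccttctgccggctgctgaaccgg
NDUFB7: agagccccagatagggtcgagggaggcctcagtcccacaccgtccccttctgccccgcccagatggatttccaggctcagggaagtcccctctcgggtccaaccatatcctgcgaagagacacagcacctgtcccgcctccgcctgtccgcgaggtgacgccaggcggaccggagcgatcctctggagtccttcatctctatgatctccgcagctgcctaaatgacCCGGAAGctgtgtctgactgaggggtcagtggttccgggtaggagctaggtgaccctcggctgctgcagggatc
The SDHD promoter holds an NRF1 match that reads the same on both strands and an ETS match, the ATP5ME promoter 2 NRF1 matches and an ETS match, the ATP5MG and NDUFB7 promoters an ETS match each, and the NDUFS6 promoter a YY1 match. Of the promoters not shown, those of COX5A and COX7B held 0 matches, and those of NDUFS7, SDHA, UQCR10 and UQCRQ at least 1. Among the 72 members with a promoter in the table, 22.2% held the NRF1 letters, 26.4% the ETS letters and 18.1% the YY1 letters, against 6.28%, 10.7% and 3.37% of all 27305 promoters. At least 1 match was found in 38 of the 72 (52.8%), against 17.9% of all promoters, and matches of different motifs overlapped in 0 of the members' promoters. No NRF1 match was found in the 11 complex IV promoters, and 9 of the 31 complex I promoters held a YY1 match. SDHD and ATP5ME, on opposite sides of DMSO in SCD1-KO cells, hold matches to the same motifs. The mRNAs of the factors themselves did not pass 2-fold. The log2 ratios of GABPA were 0.37 and 0.20 (T-3764518, then SCD1-KO cells, as in each pair of ratios from here on), those of NRF1 -0.03 and -0.15, and those of YY1 -0.20 and -0.43.

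Complex I takes electrons from NADH through a chain of iron-sulfur clusters in its matrix arm and pumps protons in its membrane arm. Of its 33 tested subunits, 30 had a ratio under 0 with the inhibitor and 27 in SCD1-KO cells. The accessory membrane arm subunit NDUFB7 gave signals of 1168 with the inhibitor and 1583 in SCD1-KO cells, against 2534 with DMSO. It was the member with the largest fall, 2.17-fold lower with T-3764518 (log2 ratio -1.12), and stood at -0.68 in SCD1-KO cells, while the SD between probe sets at its signal was 0.29 and 0.30. NDUFB7 rested on 1 kept probe set, and with the arrays scaled to 1 median its ratio with T-3764518 was -0.84, and relative to its neighbours -0.94, both short of 2-fold. That probe set is marked _s_at, so the gene drops out where such probe sets are left out. Without the filter, a second and dim probe set moved its ratio in SCD1-KO cells to -0.27.

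NDUFS7, which carries the last iron-sulfur cluster before ubiquinone, gave 2102 with the inhibitor and 1460 in SCD1-KO cells, against 2470 with DMSO. Its log2 ratios were -0.23 and -0.76, and no other complex I subunit was lower in SCD1-KO cells, but with its dim probe set, which the filter leaves out, they were -0.96 and -0.18. NDUFV1, the flavin subunit that binds NADH, gave 3511 and 3366, against 4552 with DMSO (-0.37 and -0.44). Its partner NDUFV2 gave 5742 and 4720, against 6969 (-0.28 and -0.56), and NDUFS3, a core subunit of the arm that reaches ubiquinone, 3406 and 3920, against 4612 (-0.44 and -0.23). All 4 of these core subunits were below DMSO on both other arrays. NDUFS1, the largest iron-sulfur subunit, was near DMSO at -0.08 and 0.06, and its 4 kept probe sets ran from -0.18 to 0.03 with the inhibitor and from -0.16 to 0.58 in SCD1-KO cells.

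NDUFS6, a zinc-binding subunit added late to the matrix arm, stood on the other side. It gave 5034 with the inhibitor and 8274 in SCD1-KO cells, against 5617 with DMSO, for log2 ratios of -0.16 and 0.56, and no member was higher in SCD1-KO cells. The gene next to it, MRPL36, a protein of the mitochondrial ribosome, had ratios of -0.16 and 0.56, while the 20 tested genes around NDUFS6 had a median of 0.08 in SCD1-KO cells. With T-3764518 the highest subunit of complex I was NDUFV3, at 0.29 (0.11 in SCD1-KO cells), but its probe sets gave 0.08 and 0.50.

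The other complex I subunits are accessory proteins of either arm. The 13 NDUFA subunits had a median of -0.23 with T-3764518, from -0.51 (NDUFA3) to 0.02 (NDUFA6), and of -0.27 in SCD1-KO cells, from -0.44 (NDUFA12) to 0.07 (NDUFA11). The 11 NDUFB subunits, all in the membrane arm, had medians of -0.30 and -0.27, and all 11 were under 0 with the inhibitor and 10 in SCD1-KO cells, where the lowest after NDUFB7 were NDUFB11 (-0.65) and NDUFB5 (-0.56). NDUFAB1, the mitochondrial acyl carrier protein that also serves fatty acid synthesis inside mitochondria, had ratios of -0.19 and -0.29.

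**Figure D2:**
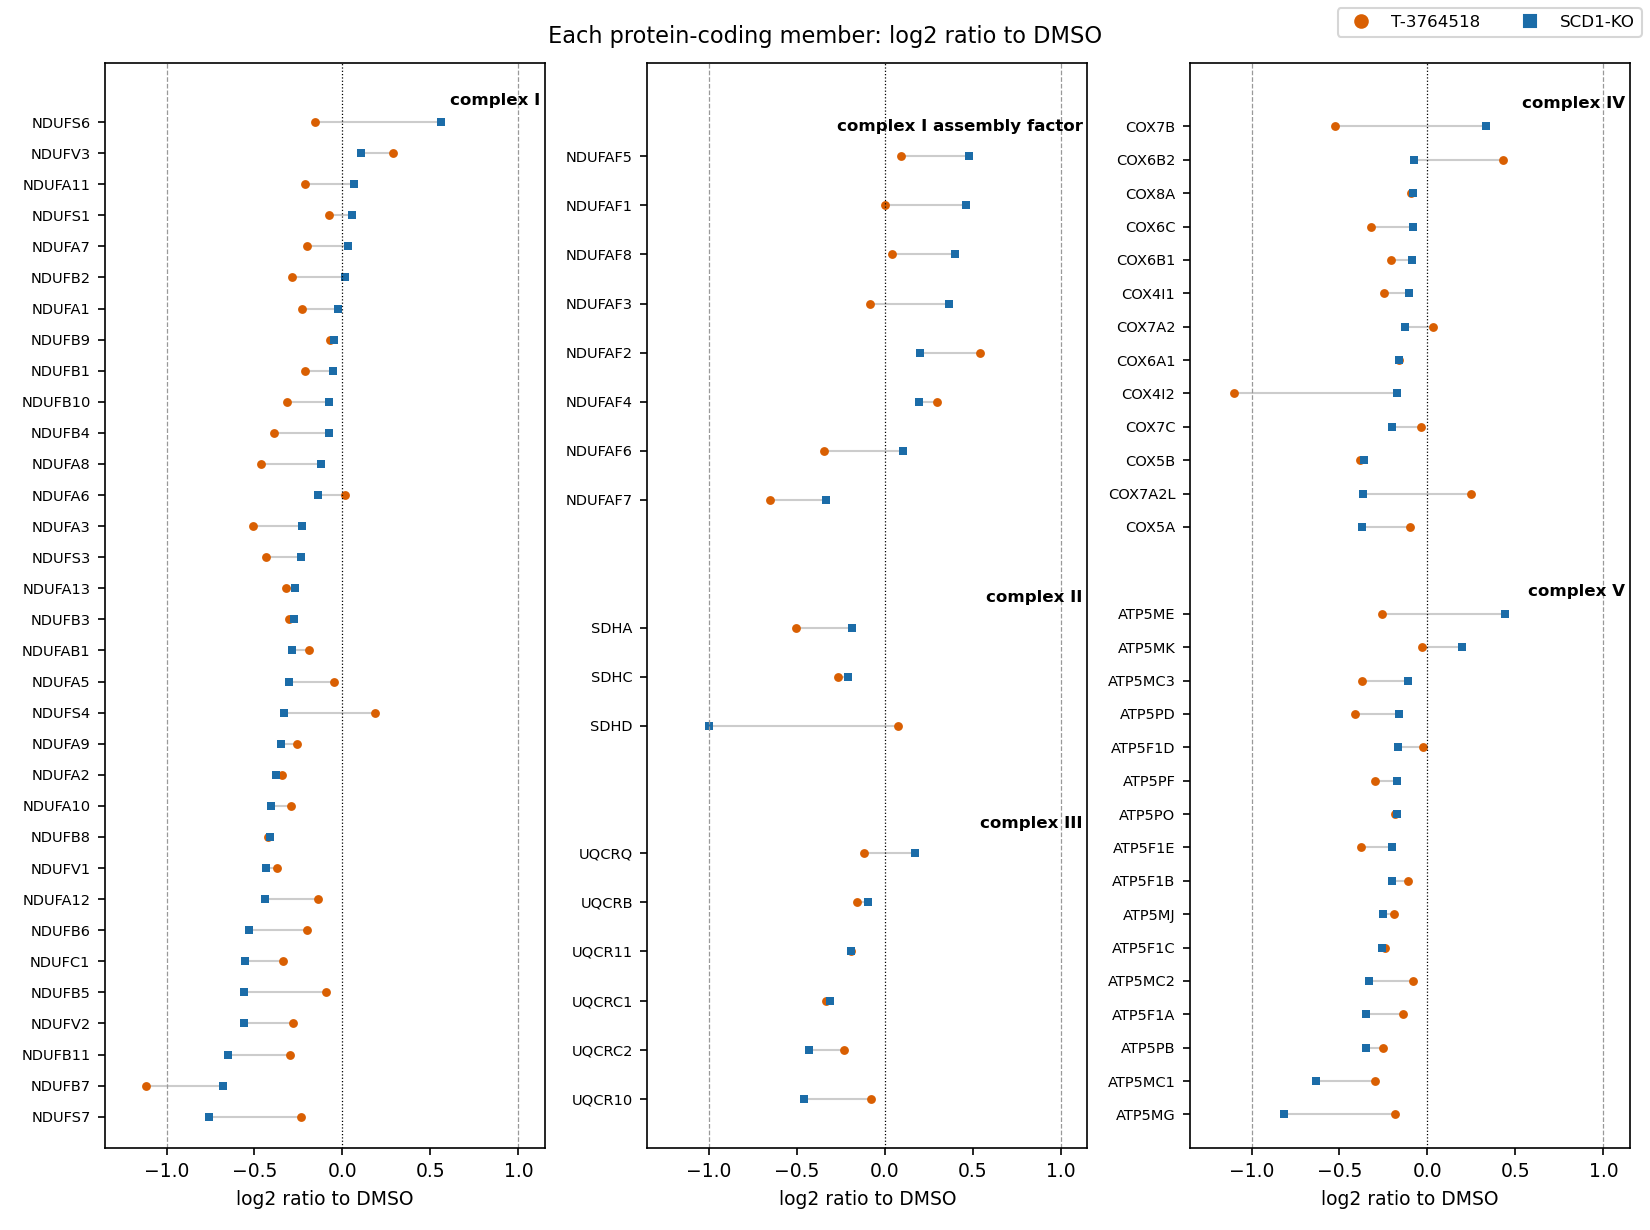
Log2 ratio to DMSO of each of the 79 tested protein-coding members, with T-3764518 (orange circles) and in SCD1-KO cells (blue squares), 1 array each, ordered within each complex by the SCD1-KO value. Dashed lines mark 2-fold. Most pairs lie left of 0, and only NDUFB7 and COX4I2 cross the dashed line, both with T-3764518. Members with widely separated points include SDHD, COX4I2, COX7B, NDUFS6, ATP5ME, ATP5MG and COX7A2L.

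Complex II is the only enzyme shared by the respiratory chain and the citric acid cycle, and 3 of its subunits were tested. SDHD, the small membrane anchor that holds heme and ubiquinone, gave 6379 with the inhibitor and 3035 in SCD1-KO cells, against 6065 with DMSO. Its log2 ratios were 0.07 and -0.999, the last the lowest of all members in SCD1-KO cells and just short of the 2-fold threshold, and SCD1-KO minus T-3764518 was -1.07. SDHD rested on 1 kept probe set. SDHC, the other anchor, had ratios of -0.27 and -0.21 over 7 probe sets. SDHA, the flavoprotein that oxidizes succinate, gave 2151 and 2688, against 3057 with DMSO (-0.51 and -0.19), on 1 probe set marked _x_at. In SCD1-KO cells the ratio of SDHD was thus well below that of SDHC, with which its protein forms 1 membrane anchor. Relative to their chromosome neighbours they were close, SDHD at -0.35 and SDHC at -0.28, with SDHA at -0.38.

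Complex III passes electrons from ubiquinol to cytochrome c. All 6 tested subunits were under 0 with T-3764518, within -0.33 to -0.08, and 5 of 6 in SCD1-KO cells. The core proteins UQCRC1 and UQCRC2 had ratios of -0.33 and -0.23 with the inhibitor and -0.31 and -0.43 in SCD1-KO cells. UQCR10 was the lowest in SCD1-KO cells at -0.46. Its 2 probe sets disagreed with T-3764518, at -0.43 (8354 against 11249 with DMSO) and 0.27 (405 against 337). UQCRQ, a small subunit, was the exception in SCD1-KO cells, at 0.17 (10240 with the inhibitor and 12487 in SCD1-KO cells, against 11100 with DMSO).

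Complex IV reduces oxygen, and several of its subunits have isoforms made in particular tissues or states. COX4I1 had ratios of -0.24 and -0.11, COX6A1 of -0.16 and -0.16, COX6B1 of -0.21 and -0.09, COX6C of -0.32 and -0.08, COX7A2 of 0.03 and -0.13, COX7C of -0.04 and -0.20 and COX8A of -0.09 and -0.08. COX5B was below DMSO on both arrays in all of its 4 probe sets, from -0.43 to -0.21 with the inhibitor and from -0.42 to -0.22 in SCD1-KO cells. COX5A had ratios of -0.10 and -0.37, but in SCD1-KO cells its bright probe set gave -0.13 and its dim one -0.61. COX7A2L, which joins complexes III and IV into supercomplexes, gave 7185 with the inhibitor and 4688 in SCD1-KO cells, against 6041 with DMSO (0.25 and -0.37), and so lay on opposite sides of DMSO on the 2 arrays.

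The alternative isoforms were dim or not measured. COX4I2, the lung and low-oxygen form of subunit 4, gave 41.8 with the inhibitor and 79.4 in SCD1-KO cells, against 89.6 with DMSO. Its fall with T-3764518 (log2 ratio -1.10) rests on a signal under the filter level, and with that signal raised to the level it was at least 1.58-fold lower, short of 2-fold. COX6B2, the testis form, gave 117 and 82.2, against 86.5 (0.43 and -0.07). The muscle forms COX6A2 and COX7A1 and the testis forms COX7B2 and COX8C had no kept probe set, nor had ATP5MF of complex V and the pseudogene COX6A1P1. NDUFA4, now named COXFA4 and counted with complex IV, is not matched by the rule, and gave 6465 and 7629, against 6712 (-0.05 and 0.18).

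Complex V has a catalytic F1 head in the matrix, a ring and other proteins in the membrane and a peripheral stalk that holds the 2 together. All 16 tested subunits were under 0 with the inhibitor and 14 in SCD1-KO cells. The 5 F1 subunits ran from -0.38 (ATP5F1E) to -0.03 (ATP5F1D) with T-3764518 and from -0.35 (ATP5F1A) to -0.16 (ATP5F1D) in SCD1-KO cells, where their SD of 0.07 was the smallest of the 3 groups. ATP5F1B, the catalytic subunit, gave 17751 with the inhibitor and 16659 in SCD1-KO cells, against 19166 with DMSO (-0.11 and -0.20). The 4 stalk subunits had medians of -0.28 and -0.17, with ATP5PD the lowest of complex V with T-3764518 at -0.41. That value rests on a dim probe set at -0.59 and a bright one at -0.23, which alone would not be the lowest.

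The 7 membrane subunits had an SD of 0.12 with T-3764518 and were the most scattered group of complex V in SCD1-KO cells, at 0.44. The 3 genes ATP5MC1, ATP5MC2 and ATP5MC3 encode the same mature ring protein, and their ratios were -0.30, -0.08 and -0.37 with the inhibitor and -0.64, -0.33 and -0.11 in SCD1-KO cells. With T-3764518, ATP5MC1 and ATP5MC3 differed by less than the SD between probe sets at their signal (0.26). ATP5MC1 gave 2837 with the inhibitor and 2249 in SCD1-KO cells, against 3495 with DMSO. ATP5MG, a membrane subunit at the dimer interface, had ratios of -0.18 and -0.82. Its 4 probe sets gave 1494 to 14328 with the inhibitor and 775 to 9216 in SCD1-KO cells, against 1708 to 16357 with DMSO, and all 4 had ratios between -0.19 and -0.16 with the inhibitor and between -1.14 and -0.75 in SCD1-KO cells. ATP5ME, a subunit next to it in the membrane, had ratios of -0.26 and 0.44. Its probe sets gave 6807 and 2754 with the inhibitor and 10259 and 4832 in SCD1-KO cells, against 8327 and 3224 with DMSO, so both were above DMSO in SCD1-KO cells. Both of these and most of those of ATP5MG are marked _x_at, so each may read more than 1 transcript or gene. ATP5ME drops out where such probe sets are left out.

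**Figure D3:**
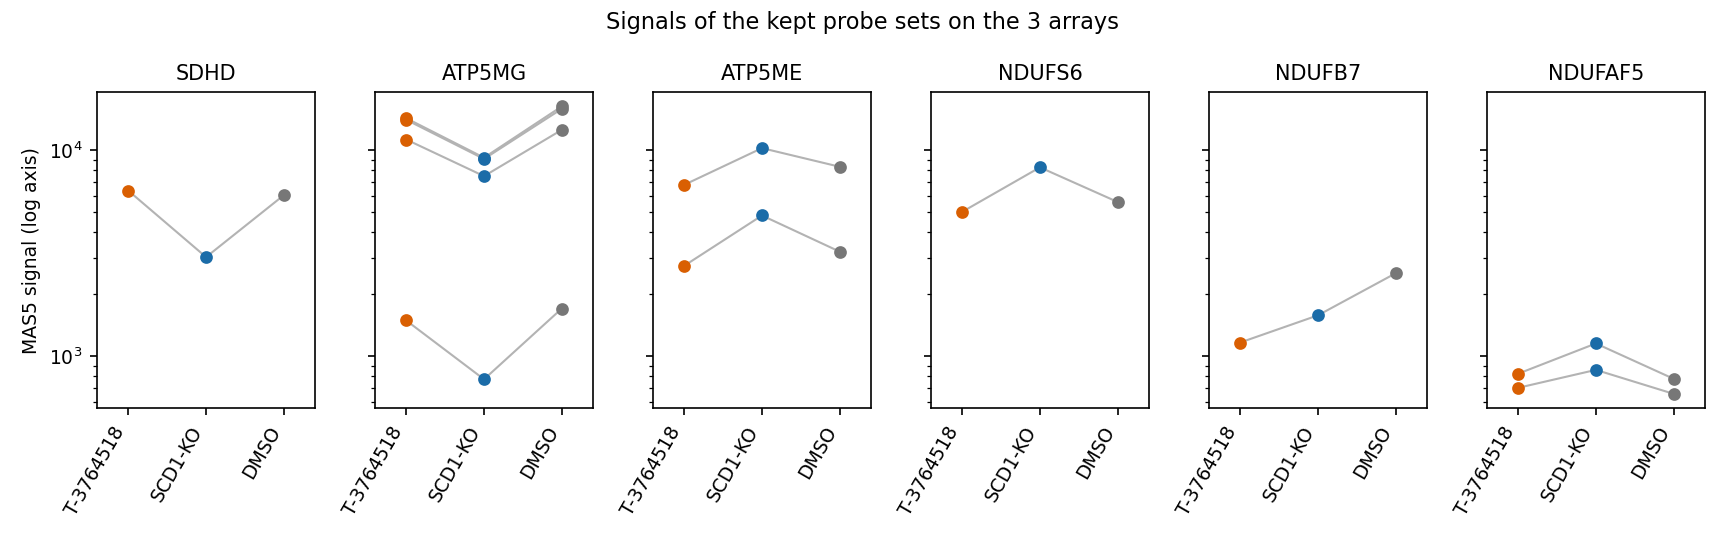
MAS5 signals (log axis) of every kept probe set of 6 members on the T-3764518, SCD1-KO and DMSO arrays, with a line for each probe set. SDHD drops to 3035 in SCD1-KO cells beside 6379 and 6065, all 4 ATP5MG lines dip and both ATP5ME lines peak there, and NDUFB7 is lowest with T-3764518.

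The 3 subunits whose ratios stood farthest from the median of their complex in SCD1-KO cells besides NDUFS6 lay among genes on the same side of DMSO. SDHD and ATP5MG are on the long arm of chromosome 11 and ATP5ME is near the end of the short arm of chromosome 4. Of the 98 other tested protein-coding genes from SDHD to the end of the long arm, 87 were under 0 in SCD1-KO cells, with a median of -0.79, against 49 and a median of 0.01 with T-3764518. Between SDHD and ATP5MG, 23 of 27 genes were under 0 in SCD1-KO cells (median -0.54), against 10 (median 0.10) with T-3764518. The genes on either side of SDHD, TIMM8B and IL18, had ratios of 0.28 and -0.39 and of 0.25 and -1.30, and those beside ATP5MG, UBE4A and KMT2A, of 0.06 and -1.03 and of -0.15 and -0.88. Among the 12 tested genes nearest to ATP5ME, 11 were above 0 in SCD1-KO cells (median 0.62), against 4 (median -0.04) with T-3764518. With T-3764518, 4 members had nearest tested genes with a median at or below -0.3, and 0 at or above 0.3. These 4 were ATP5MK (neighbours at -0.34), NDUFA7 (-0.33), SDHA (-0.31) and COX8A (-0.30). In SCD1-KO cells, SDHD, ATP5MG and ATP5ME were the only members whose 20 nearest tested genes (12 for ATP5ME) had a median beyond 0.3 on either side.

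Relative to those neighbours, SDHD was at -0.35, ATP5MG at -0.14 and ATP5ME at -0.17 in SCD1-KO cells, so that ATP5ME, above DMSO by itself, was below its neighbours. NDUFB11, NDUFS7, NDUFB7 and ATP5MC1 had no such surroundings: their neighbours had medians of 0.16, -0.03, -0.04 and 0.27. With each member taken relative to its neighbours, the median of the members was -0.15 with T-3764518 (56 of 83 under 0, with complexes III and IV just above 0) and -0.21 in SCD1-KO cells (59 of 83). Gene copy number was not measured here, and its part in these values was not tested.

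**Figure D4:**
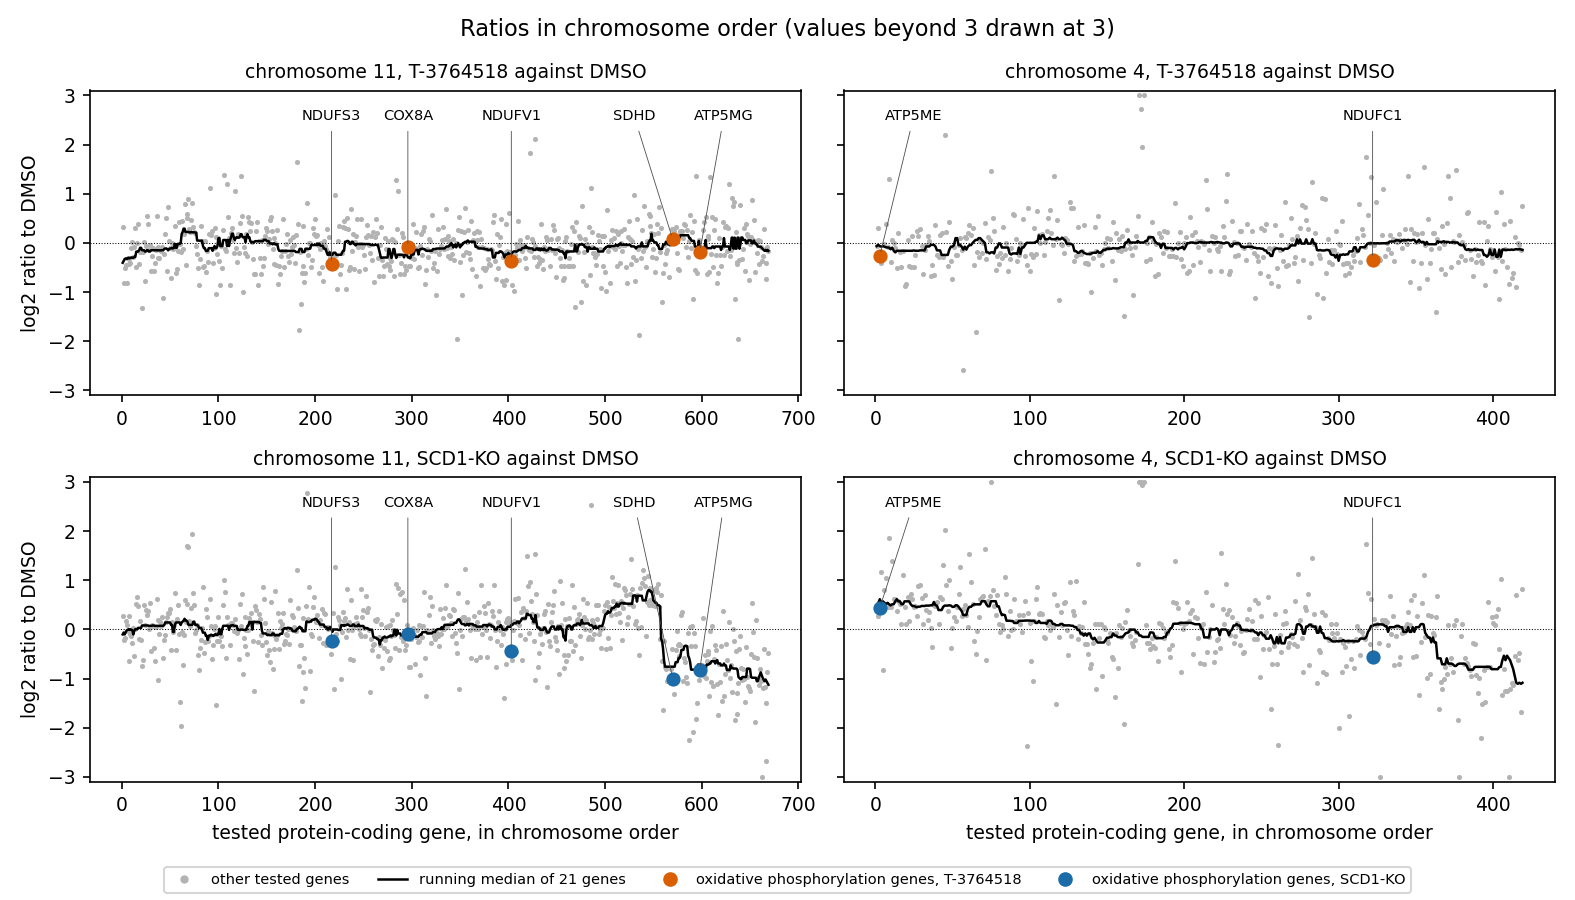
Log2 ratio to DMSO of all tested protein-coding genes of chromosomes 11 and 4 in their order along the chromosome, with T-3764518 (top) and in SCD1-KO cells (bottom), and a running median over 21 genes (black). Values beyond 3 are drawn at 3. In SCD1-KO cells the running median drops below 0 at SDHD and ATP5MG and lies above 0 at ATP5ME, while it stays near 0 with T-3764518.

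The NDUFAF genes, whose products assemble complex I, were mostly above 0 in SCD1-KO cells, at 7 of 8. Of the 33 subunits of complex I 6 were, and of all 12321 genes 6024. With T-3764518 it was 4 of 8, against 3 of 33 and 5051 of all genes. NDUFAF5, which hydroxylates NDUFS7 during assembly, gave 704 and 824 with the inhibitor and 861 and 1156 in SCD1-KO cells, against 658 and 779 with DMSO (0.09 and 0.48). NDUFAF1 had ratios of -0.0017 and 0.46, NDUFAF8 of 0.04 and 0.40 and NDUFAF3 of -0.08 and 0.36. NDUFAF2 was the highest of all members with T-3764518, at 2258 with the inhibitor and 1783 in SCD1-KO cells, against 1551 with DMSO (0.54 and 0.20). NDUFAF7, a methyltransferase that acts early in assembly, was the 1 under 0 in SCD1-KO cells, at -0.65 and -0.34, but its 3 probe sets ran from -0.90 to -0.10 and from -0.44 to 0.30. None of the 8 passed 2-fold. In the direct comparison their median was 0.37 (SCD1-KO minus T-3764518, all genes 0.06). In it 6 of 8 were higher in SCD1-KO cells, as were 6814 of all 12321 genes. The 48 tested assembly factors of complexes I to V with other names had medians of -0.14 and -0.02. With the inhibitor 0 were called higher and 0 lower, where 2.18% and 3.3% of all genes were. In SCD1-KO cells 0 were called higher and 1 lower (ECSIT, another complex I factor, at -1.16), where 3.12% and 3.93% of all genes were.

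The rule also took in 5 RNAs that encode no subunit, of which 4 were tested. The antisense RNA NDUFV2-AS1 gave 97.5 with the inhibitor and 45.4 in SCD1-KO cells, against 86.0 with DMSO (0.18 and -0.92), and its SCD1-KO signal was under the filter level. The divergent transcript NDUFV1-DT had ratios of -0.68 and -0.91, NDUFB2-AS1 of -0.13 and -0.45 and the pseudogene ATP5MC2P1 of -0.13 and -0.49. Without these and the NDUFAF genes, the 71 subunits had medians of -0.23 and -0.20, and 64 and 61 were under 0.

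The genes around the respiratory chain gave a mixed picture. The 7 tested subunits encoded in mitochondrial DNA had a median of -0.18 with the inhibitor and 0.10 in SCD1-KO cells, where 5 of 7 were above 0 and the nuclear subunits had a median of -0.20. They ran from -0.32 (COX3) to 0.10 (ATP6) with the inhibitor and from -0.31 (ATP6) to 0.28 (ND6) in SCD1-KO cells, so that ATP6 was the highest of them on one array and the lowest on the other. Cytochrome c and 8 other proteins that feed or pass electrons had medians of -0.24 and -0.57. Of these 9, 2 were called lower in SCD1-KO cells, where 3.93% of all genes were. They were DHODH, which makes pyrimidines and reduces ubiquinone (-0.34 and -1.26), and ETFDH, which brings in electrons from fatty acid oxidation (0.34 and -1.21). ETFDH lies on chromosome 4 among neighbours with a median of -0.65 in SCD1-KO cells, and those of DHODH had a median of 0.04. CYC1, the cytochrome c1 of complex III, had ratios of -0.44 and -0.74, and CYCS, cytochrome c itself, of -0.43 and 0.32.

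The 12 citric acid cycle genes had medians of -0.33 and -0.15, and 0 of them passed 2-fold. IDH2, the mitochondrial isocitrate dehydrogenase that uses NADP, had ratios of -0.81 and -0.67, and OGDH, of the 2-oxoglutarate dehydrogenase complex, of 0.18 and 0.87. SUCLG2, the lowest of the 12 in SCD1-KO cells, had ratios of -0.28 and -0.83. Among 7 carriers, channels and regulators of ATP export, 1 was called lower in SCD1-KO cells, where 3.93% of all genes were. It was the ADP/ATP carrier SLC25A4 (-0.37 and -1.34), whose neighbours on chromosome 4 had a median of -0.58 in SCD1-KO cells. The 15 regulators of mitochondrial biogenesis, which include the nuclear activators above and TFAM (-0.19 and -0.30), a factor for the transcription of mitochondrial DNA, had medians of -0.03 and 0.02 with 0 calls. The 12 mitochondrial chaperones and proteases had medians of -0.0036 and -0.07, also with 0 calls.

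Other bright, housekeeping sets served as a scale. The 75 mitochondrial ribosomal proteins had medians of -0.13 with the inhibitor and -0.09 in SCD1-KO cells, with 54 and 47 under 0. The 57 cytosolic ribosomal proteins had medians of -0.01 and -0.14, with 29 and 48 under 0. The structural subunits, at -0.23 and -0.20, lay below both ribosomal sets on both arrays. The 17 targets of hypoxia-inducible factor and glycolytic genes had medians of -0.25 and -0.89. In SCD1-KO cells 7 of the 17 were called lower, where 3.93% of all genes were. The lowest were ANKRD37 (-3.30), BNIP3 (-1.69), a mitochondrial receptor for mitophagy, and ADM (-1.53). With T-3764518 only ADM (-1.03) was called lower, where 3.3% of all genes were. ANKRD37 lies on chromosome 4 near SLC25A4, and its 19 neighbours had a median of -0.53 in SCD1-KO cells, against 0.05 for those of BNIP3 and -0.04 for those of ADM. VEGFA, which drives blood vessel growth, was the highest of the 17 on both arrays, at 0.72 and 0.13. PDK1, which slows the entry of pyruvate into the citric acid cycle, had ratios of -0.51 and -1.18.

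**Figure D5:**
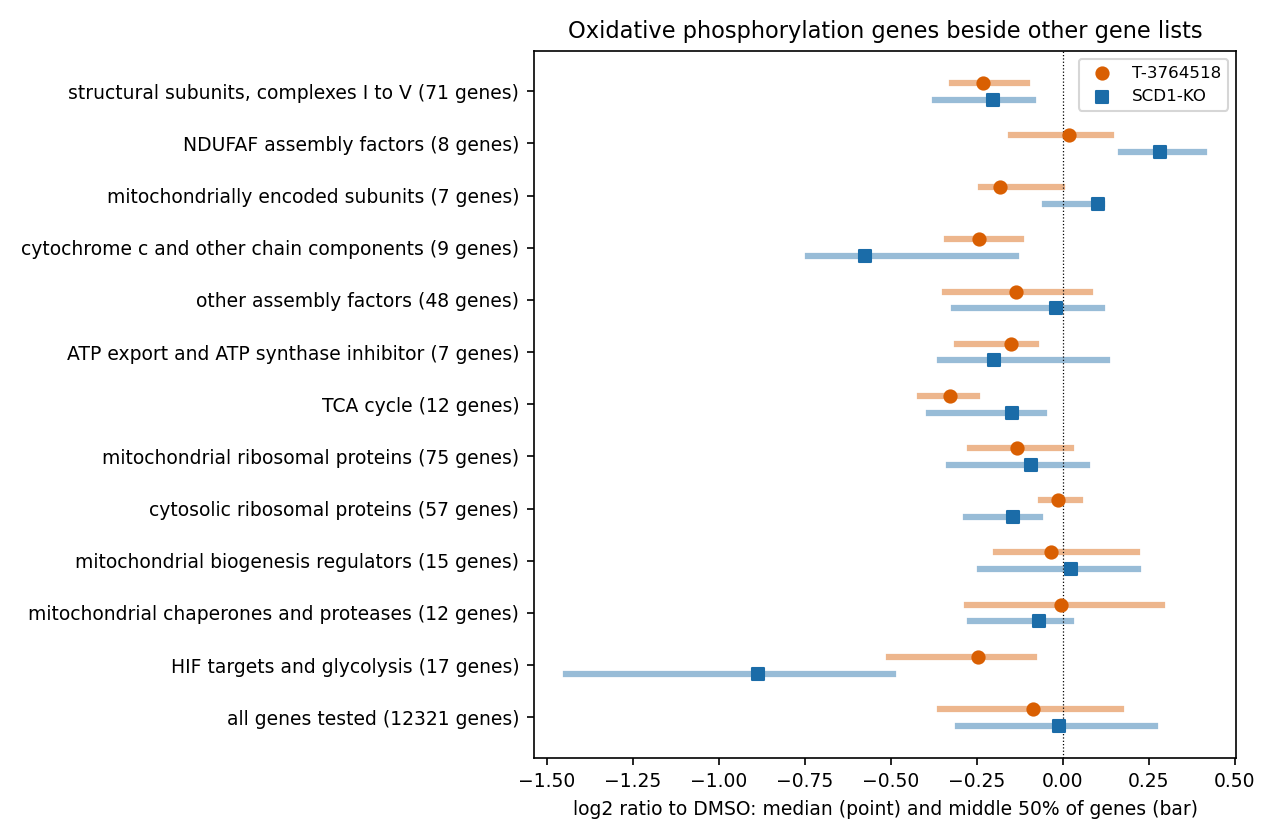
Median (points) and interquartile range (bars) of the log2 ratio to DMSO over the genes of each list, with T-3764518 (orange circles) and in SCD1-KO cells (blue squares), 1 array each. The structural subunits lie at -0.23 and -0.20, the NDUFAF assembly factors at 0.02 and 0.28, the hypoxia and glycolysis list at -0.25 and -0.89, and all genes tested at -0.09 and -0.01.

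How far a single member can be read differs. Of the 83, 48 rested on 1 kept probe set, and among the other 35 the probe sets fell on both sides of DMSO for 6 with the inhibitor and 17 in SCD1-KO cells. COX7B gave -0.31 and -0.74 with the inhibitor and -0.20 and 0.87 in SCD1-KO cells, where its median of 0.33, the highest of complex IV, was set by the dim probe set. ATP5PO, a stalk subunit, gave -0.57 and 0.23 in SCD1-KO cells. Many of these genes have processed pseudogenes of near-identical sequence, and 46 members had a kept probe set marked _s_at or _x_at, which can read more than 1 transcript or gene. Of the 83, 78 had all signals of all kept probe sets above the filter level.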

How the data were processed

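Total RNA of 3 cultures was hybridised to 3 arrays, 1 per condition. The authors deposited for each array the MAS5 signal intensity of 54675 probe sets on a linear scale, unlogged. MAS5, named by the submitters' processing notes, combines perfect-match and mismatch probes into 1 value and scales each array, with a version not given in the sources used here. Trimmed means were equal (500.1 on each array), while median signals were 56.7 on the T-3764518 array, 62.4 on that of SCD1-KO cells and 68.8 on the DMSO array. How the cultures were grouped was taken from the labels.

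Probe sets were named through GEO's platform annotation (41097 with 1 gene, 1801 with several), and symbols were updated through RefSeq. Kept were 23198 probe sets whose average log2 signal was at or above the array-wide median (filter level 56.6), which covers 12321 genes. Log2 ratios were taken against DMSO, and the median was used for genes with several kept probe sets. Calls at 2-fold are counts without a test. Neighbours were the 10 tested genes on each side in RefSeq order, fewer at a chromosome end. Promoters and motifs came from RefSeq (GRCh38.p14). The scripts used Python 3.11.15, numpy 2.4.6, pandas 2.3.3, statsmodels 0.14.6 and matplotlib 3.10.9 and were tested on simulated data. The number of arrays limits the precision of every value. No column of values of other samples was present.

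The symbol rule and the lists use no expression value but were chosen with earlier results of these data known. The text names members past 2-fold, the highest and lowest of each complex, core subunits and tissue isoforms with their partners. From the other lists it names some of the genes past 2-fold or of the highest and lowest, and in several lists neither. Other genes, among them NDUFAB1, NDUFB5, NDUFB11, NDUFAF1, NDUFAF3, NDUFAF8, MRPL36, CYC1, IDH2, OGDH, PDK1, TFAM and the chromosome neighbours, were chosen after their values were seen. Some genes are not analysed here.

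Alternatives were scaling to 1 median, quantile normalization, a lowess correction that depends on intensity, no filter or one at percentile 75, an offset of 16.5, a floor at the filter level, the brightest or the mean of the kept probe sets, leaving out probe sets marked _s_at or _x_at, centring on all genes, and thresholds of 1.5-fold and 3-fold. Values relative to chromosome neighbours and for protein-coding members or structural subunits only were added after seeing the data.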

Additional observations from a re-analysis of the deposited data

How the results depend on the processing

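No paired analysis was possible because each condition had 1 array. Scaling to 1 median changed most. The median of the members became 0.074 with the inhibitor and -0.062 in SCD1-KO cells, and with T-3764518 30 members were then under 0. The medians of complexes I to V became 0.022, 0.012, 0.10, 0.12 and 0.065 with T-3764518, and those of complexes I, III, IV and V -0.13, -0.11, 0.015 and -0.062 in SCD1-KO cells. The members' median minus that of all genes was negative in each of the normalizations, filters and probe set rules, from -0.19 to -0.09 with the inhibitor and from -0.21 to -0.11 in SCD1-KO cells. Scaling to 1 median and centring shift every gene of an array alike, so this difference could not change with them. Centring on all genes gave -0.12 over the members, -0.17 for complex I and -0.13 for complex V with T-3764518. Relative to chromosome neighbours these were -0.15 over the members, -0.17 for complex I, 0.0033 for complex III and 0.019 for complex IV. Without probe sets marked _s_at or _x_at, complex II was at -0.58 in SCD1-KO cells, where fewer probe sets remain. The 2 members called lower with T-3764518 became 1 with quantile normalization, the lowess correction, the filter at percentile 75, the offset, the floor and without _s_at and _x_at probe sets, 0 with scaling to 1 median, at 3-fold and relative to neighbours, and 4 without a filter and at 1.5-fold. The 0 lower members in SCD1-KO cells became 4 without a filter, 1 without _s_at and _x_at probe sets, 1 relative to neighbours and 8 at 1.5-fold. Without a filter, 2 members were higher with the inhibitor and 1 in SCD1-KO cells. The share of higher calls among all genes past 2-fold with T-3764518 was 39.8%, against 58.1% with quantile normalization, 77.2% with scaling to 1 median, 60.9% with lowess, 68.5% with the filter at percentile 75 and 50.9% with centring, and in SCD1-KO cells it was 44.3%, against 61% with scaling to 1 median. For the 37 members that the rule for named genes gives (74 ratios), 54 of 866 values under an alternative moved by more than the spread between probe sets, 29 of them with scaling to 1 median, and 25 of the 54 changed sign. That spread is wider than most of the ratios, so the others are not shown to be stable, and members named outside the rule were not run. Dim members such as COX4I2, COX6B2 and the antisense RNAs, with signals near the filter level of 56.6, have the widest spread.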
